A study of Drosophila melanogaster with 8 samples.

Results

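The genes described here are 10 drivers of the Drosophila cell division cycle, chosen by their gene identifiers: the cyclins CycA, CycB, CycB3, CycD and CycE, the kinase Cdk1, the kinase inhibitor dap, the phosphatase stg, the transcription factor E2f1 and the mitotic kinase polo. All 10 were found among the 17559 genes of the deposited comparisons, and 5 of them also came with a read count in each library. RNA that co-precipitated with a FLAG- and HA-tagged protein was sequenced from transfected SL2 cells, a male, macrophage-like Drosophila melanogaster line, after collection with an antibody against FLAG. The tagged protein was Sex-lethal (SXL, 2 libraries), Sister-of-Sex-lethal (SSX, 3 libraries) or green fluorescent protein (GFP, 2 libraries), the last serving as the control for RNA that sticks without a fly RNA-binding protein. No other genotype, drug or time point separated the groups, and the promoter of the constructs was not given in the sources used here. The 1 input sample was not analysed here, so an mRNA that was more abundant in the transfected cells cannot be told apart from one that was recovered better from them.

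A cell division cycle is driven by cyclin-dependent kinases, which are active when bound to a cyclin and free of inhibitors. CycD and E2f1 act in the growth phase before DNA replication, CycE starts replication, and dap holds CycE and its kinase in check. stg removes inhibitory phosphates from Cdk1, and Cdk1 with CycA, CycB and CycB3 then drives mitosis together with polo. SXL is a female-specific RNA-binding protein that regulates splicing and translation through uridine-rich sites, and SSX is its paralogue.

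With SSX, 9 of the 10 mRNAs were higher than with GFP and 1, Cdk1, was lower, in the authors' deposited table at an adjusted p under 0.05. Of all 9034 genes tested there, 26.2% were higher and 19.3% lower. With SXL, 8 of the 10 were higher in the authors' deposited table, where 16.4% of 7170 tested genes were, and none of the 10 was lower, against 13.0% of tested genes. CycB3 and Cdk1 did not pass with SXL. The share of genes called higher grew with read number: where the mean normalized count reached 50 (4115 genes), 45.7% were higher with SSX and 27.7% with SXL. In that range lay 9 of the 10 drivers, all but Cdk1, and 9 and 8 of them were called higher. The median log2 fold change of the 10 was 2.24 with SSX and 1.48 with SXL in the authors' deposited tables, against 0.44 and 0.09 for all tested genes and 0.66 and 0.35 for those whose mean reached 50.

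Under the scaling of the deposited fit, SXL and SSX also differed from each other on most of these mRNAs. The difference depends on that scaling, as given below for the genes with counts per library. In the authors' deposited table, 8 of the 10 were lower with SXL than with SSX, where 25.9% of 9500 tested genes were, and Cdk1 was higher with SXL, where 11.5% were. In the range of means from 50 upwards, 40.4% were lower with SXL. CycA alone of the 10 did not pass this test. The median log2 SXL over SSX was -0.84 for the 10 genes, -0.23 for all tested genes and -0.32 for those whose mean reached 50 in the authors' deposited table. The comparisons with GFP share the GFP libraries, so a gene's values with SXL and SSX are not independent of each other.

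**Figure D1:**
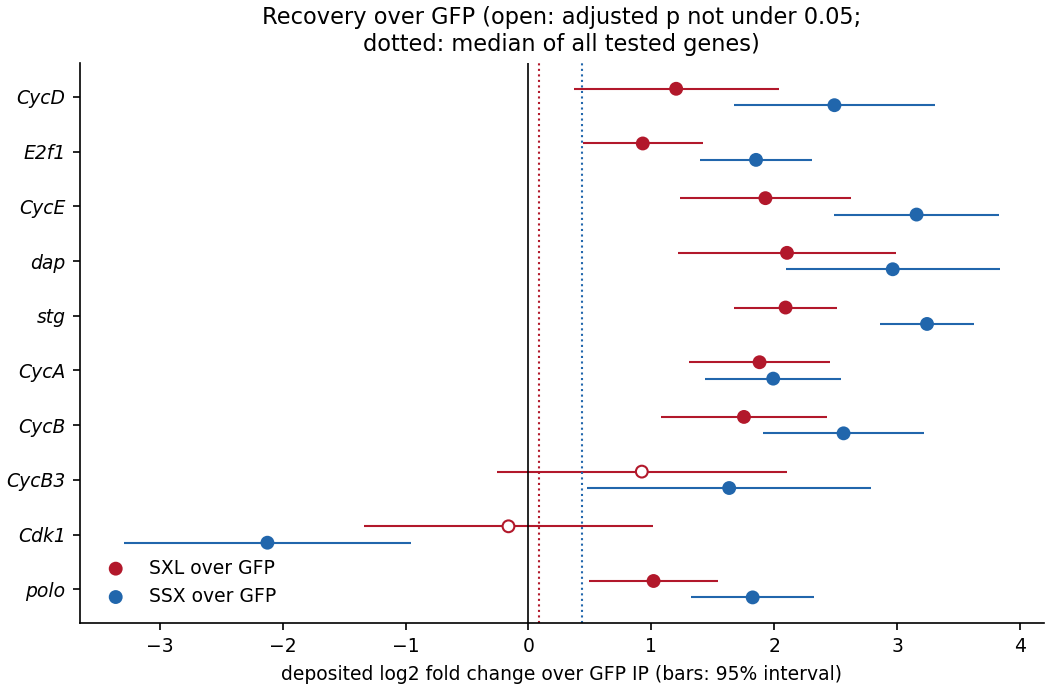
Log2 fold change over the GFP IP (x axis, no unit) of the 10 genes for the SXL IP (red) and the SSX IP (blue), with 95% intervals from the deposited standard errors; open points did not pass an adjusted p of 0.05, and dotted lines mark the median of all tested genes. 9 genes lie to the right of 0 with both proteins, from 0.92 to 2.10 with SXL and from 1.63 to 3.24 with SSX, while Cdk1 lies at -0.16 and -2.12.

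Library depth differed widely between the groups and sets the precision. Over the 956 genes that the authors listed as enriched, reads numbered 3266209 and 3604413 with SXL, 3383720 to 4429899 with SSX, and 20859 and 27467 with GFP; the totals over all genes are unknown here. Normalized counts are reads divided by size factors, which the counts and the deposited means fix exactly, of 3.33 and 3.59 (SXL), 1.87 to 2.15 (SSX) and 0.0886 and 0.120 (GFP). A GFP value of 100 normalized counts therefore stands for about 10 reads. Of the 9 markers of macrophage-like cells examined, srp, the GATA factor of blood cells, had counts at hand, with a mean of 955 normalized counts in the GFP libraries; the others could not be read by name here. Of the other marker lists, the male-specific msl-2 (1 of 3) had 131 in the GFP libraries, the germline gene osk (1 of 4) 12.5 and the neuronal gene elav (1 of 4) 132. No marker of ovarian somatic cells, of 3 examined, had counts at hand. Libraries are named below by the number in their column name, which for SXL and GFP is not the number in the sample title.

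The growth phase cyclin CycD (FBgn0010315, BDGP6 X, 15906822 to 15909676), the partner of Cdk4, was recovered above GFP with both proteins. CycD reached normalized counts of 167 and 158 with SXL, 338, 451 and 408 with SSX, and 79.0 and 58.1 with GFP. All SSX libraries lay above both SXL libraries, which lay above both GFP libraries. Genes with counts were listed for their enrichment, so a place above GFP was favoured by that selection, here and for the genes below. The log2 fold change of CycD over GFP in the authors' deposited tables was 1.20 (SXL, SE 0.43, adjusted p = 0.0199) and 2.49 (SSX, SE 0.42, adjusted p = 1.73e-08). The GFP libraries held 7 reads of CycD each, 14 in all (exact 95% Poisson interval 7.65 to 23.5, counting error only). By edgeR's quasi-likelihood test on the listed genes, the call of CycD with SXL was lost when GFP library 3 was left out (log2 fold change 1.04, adjusted p = 0.0863). Between the proteins, the authors' deposited table gave CycD a log2 SXL over SSX of -1.29 (SE 0.21, adjusted p = 2.95e-08), the lowest value of the 10.

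E2f1 (FBgn0011766), the activator of replication genes that CycD with its kinase releases from Rbf, had the second highest mean normalized count of the 10, 2196 over all 7 libraries. It was not among the listed genes, so no counts per library were at hand. For such genes the deposited mean and fold changes fix a mean for each group, called an implied mean here, which has no SD. The implied means of E2f1 were 1760 with SXL, 3335 with SSX and 923 with GFP, the last equal to about 193 GFP reads. E2f1 rose by a log2 of 0.93 with SXL (SE 0.25, adjusted p = 0.00129) and 1.85 with SSX (SE 0.23, adjusted p = 1.81e-14) in the authors' deposited tables. For SXL against SSX, the log2 SXL over SSX of E2f1 in the authors' deposited table was -0.92 (SE 0.21, adjusted p = 6.6e-05). The RefSeq span of E2f1 (Release 6, 3R, 21620304 to 21660871) overlaps 5 noncoding RNA genes, mir-998 and mir-11 among them, and whether the counting used strand was not given in the sources used here.

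Implied means were checked where both could be had. Over 675 listed genes with at least 10 GFP reads, the log2 ratio of implied to measured mean had a median of 0.0027 for SXL, -0.0051 for SSX and 0.046 for GFP. For GFP its central 95% ran from 0.00058 to 0.17, so for these enriched genes implied GFP means tend to lie slightly above measured ones. For dap, with 11 GFP reads, the implied GFP mean was 56.1 and the measured one 47.2. Cdk1 and CycB3, with about 9.86 and 6.31 implied GFP reads, lie below the floor of 10 reads. The check therefore does not cover their implied means.

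**Figure D2:**
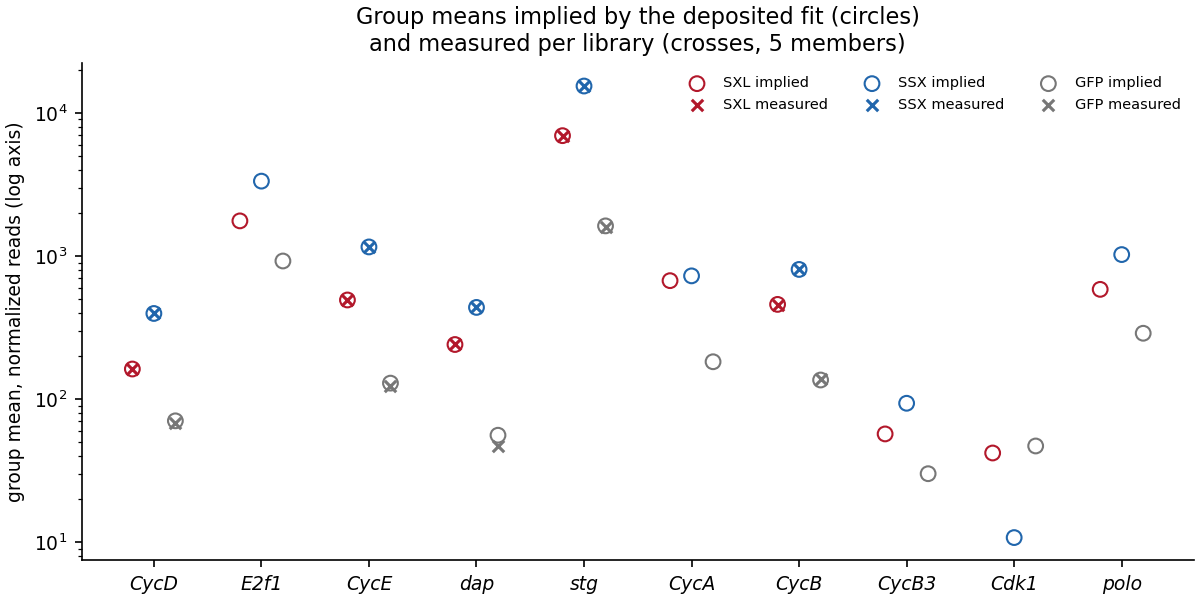
Group means in normalized reads (y axis, log scale) of the 10 genes in the SXL (red), SSX (blue) and GFP (grey) IP, as implied by the deposited fit (circles) and, for 5 genes, as measured over 2, 3 and 2 libraries (crosses). The crosses fall on or near the circles, and Cdk1 is the gene with the lowest SSX mean, 10.8. Longer mRNAs take more reads, so heights are not to be compared between genes.

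CycE (FBgn0010382, BDGP6 2L, 15727581 to 15748150), the cyclin that starts DNA replication, followed the same order of groups. Its normalized counts were 477 and 509 with SXL, 958, 1132 and 1397 with SSX, and 113 and 133 with GFP. No library of one group reached the range of another. CycE rose by a log2 of 1.93 with SXL (SE 0.36, adjusted p = 1.06e-06) and 3.16 with SSX (SE 0.34, adjusted p = 9.24e-19) in the authors' deposited tables. Between SXL and SSX, the log2 SXL over SSX of CycE in the authors' deposited table was -1.23 (SE 0.22, adjusted p = 1.76e-07). CycE spans the noncoding gene CR44974 and the antisense gene CR44866, which overlap it by 744 and 150 bp. The part of their reads in these values was not tested.

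The inhibitor dap (FBgn0010316, BDGP6 2R, 9712321 to 9716256), the fly member of the p21 and p27 family, had the highest deposited fold change with SXL of the 10. The value of stg was nearly the same, a log2 of 2.09 against 2.10 for dap. The normalized counts of dap were 231 and 255 with SXL, 400, 458 and 470 with SSX, and 11.3 and 83.0 with GFP. The GFP libraries differed most for this gene, with 1 and 10 reads (11 in all, exact 95% Poisson interval 5.49 to 19.7). Both lay below all SXL and SSX libraries, which the selection of listed genes for enrichment favours. By the authors' deposited tables dap rose by a log2 of 2.10 with SXL (SE 0.45, adjusted p = 3.84e-05) and 2.97 with SSX (SE 0.45, adjusted p = 2.8e-10). Without GFP library 3 the log2 ratio of the group means with SXL went from 2.37 to 4.43, and without GFP library 2 to 1.55; with SSX it went from 3.23 to 5.29 and 2.41. The log2 SXL over SSX of dap, which does not compare with GFP, was put at -0.86 by the authors' deposited table (SE 0.20, adjusted p = 0.000114). The GFP libraries are part of the same fit, so its size factors and error are not free of them. Before scaling, the reads of dap overlapped between SXL (768 and 918) and SSX (858, 890 and 878), so this difference rests on the size factors.

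The phosphatase stg (FBgn0003525, BDGP6 3R, 29251826 to 29255800), the Cdc25 that triggers entry into mitosis, was the most deeply read of the 10, with a mean normalized count of 9039. Its normalized counts were 6307 and 7529 with SXL, 13382, 17061 and 15795 with SSX, and 1512 and 1685 with GFP. The GFP values rest on 134 and 203 reads, so counting error is small here, and the 3 groups did not overlap. In mean ± SD this was 6918 ± 864 (n = 2), 15412 ± 1869 (n = 3) and 1599 ± 122 (n = 2). The changes were 4.27-fold with SXL (adjusted p = 5.97e-21) and 9.48-fold with SSX (adjusted p = 1.31e-58), the smallest adjusted p of the 10 in each of the authors' deposited tables. Set against each other, SXL was below SSX: the log2 SXL over SSX of stg in the authors' deposited table was -1.15 (SE 0.18, adjusted p = 4.64e-09). stg and dap were the drivers in the authors' list for SXL, for which the log2 fold change had to exceed 2 and the adjusted p to stay under 0.001 and which held 2.78% of the genes tested. The list for SSX, with 10.5% of the genes tested, held stg, dap, CycE, CycB and CycD.

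**Figure D3:**
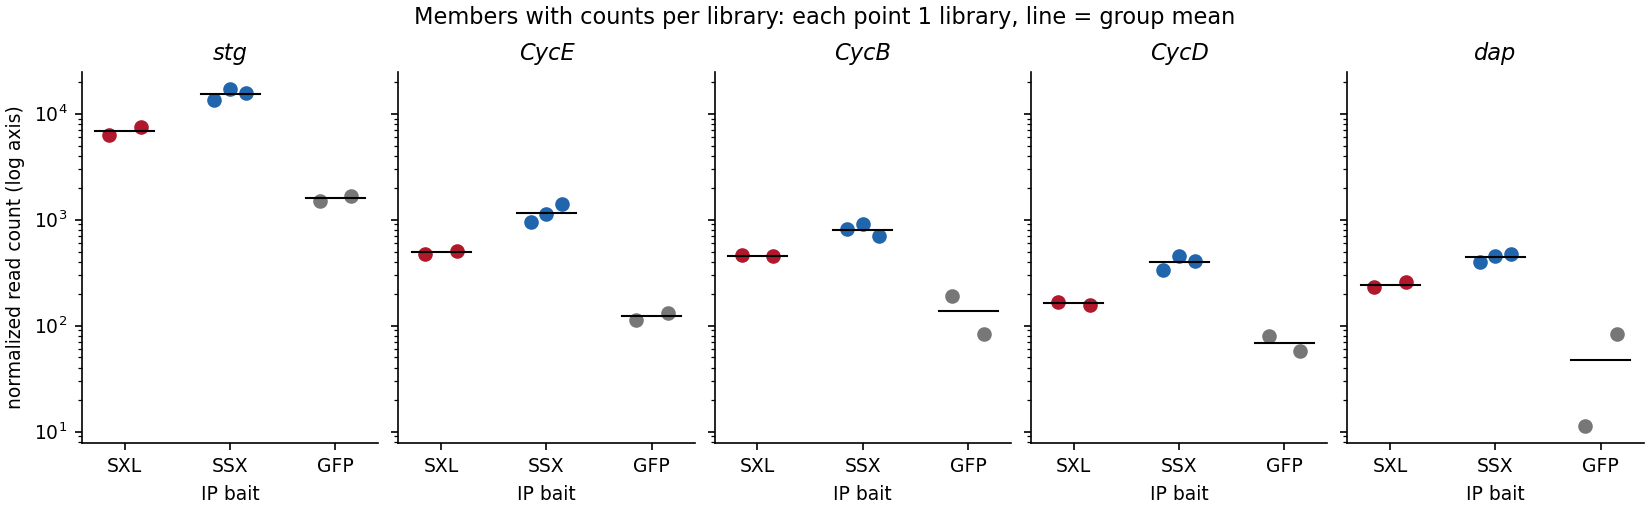
Normalized read counts (y axis, log scale) of the 5 genes with counts at hand, by IP bait; each point is 1 library and each line a group mean (2 SXL, 3 SSX and 2 GFP libraries). In all 5 panels the SSX points lie above the SXL points and these above the GFP points under the size factors of the deposited fit. Scaling over the listed genes alone centres them by construction. It puts the log2 SXL over SSX of stg, CycE, CycB and dap between 0.027 and 0.42 and that of CycD at -0.038, with none past the test. The GFP points of dap spread from 11.3 to 83.0.

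The kinase Cdk1 (FBgn0004106, RefSeq Release 6, 2L, 10384739 to 10386262) is the catalytic partner of the mitotic cyclins. Alone of the 10, it was called lower with SSX than with GFP and higher with SXL than with SSX. Its implied means were 42.1 with SXL, 10.8 with SSX and 47.2 with GFP, about 292, 64.4 and 9.86 reads in all. Cdk1 fell by 2.12 on the log2 scale with SSX (SE 0.60, adjusted p = 0.00134) in the authors' deposited table, to 0.229 times the level with GFP. With SXL its log2 fold change was -0.16 (95% interval -1.34 to 1.01, adjusted p = 0.874) in the authors' deposited table, an interval that holds values on both sides of 0. In the direct comparison, the log2 SXL over SSX of Cdk1 in the authors' deposited table was 1.96 (SE 0.43, adjusted p = 4.01e-05), above 98.6% of the genes tested. Cdk1 had the lowest mean normalized count of the 10, 30.2, and the shortest span, 1524 bp. No counts per library of Cdk1 were at hand, and both of its calls were lost under the Holm adjustment given below.

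CycA (FBgn0000404; RefSeq Release 6, 3L, 11826719 to 11833578), which acts before and early in mitosis, had implied means of 673 with SXL, 727 with SSX and 183 with GFP. CycA rose by a log2 of 1.88 with SXL (SE 0.29, adjusted p = 2.98e-09) and 1.99 with SSX (SE 0.28, adjusted p = 1.97e-11) in the authors' deposited tables. As to the proteins, the log2 SXL over SSX of CycA in the authors' deposited table was -0.11 (95% interval -0.44 to 0.21, adjusted p = 0.634). A difference between the proteins was not detected, and under the deposited size factors one larger than a log2 of 0.44 lies outside the interval. The interval does not cover error in those factors, and without counts of CycA no other scaling could be tried. CycA stood above 93.7% of tested genes with SXL and 81.5% with SSX. Its span overlaps that of CG7264 by 1815 bp, the longest overlap among the 10, and the part of that gene's reads in these values was not tested.

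CycB (FBgn0000405, BDGP6 2R, 22803521 to 22806948), a partner of Cdk1 in mitosis, had normalized counts of 461 and 456 with SXL, 811, 908 and 700 with SSX, and 192 and 83.0 with GFP. The SXL libraries were nearly equal and the GFP libraries differed most, with 17 and 10 reads, and no groups overlapped. CycB rose by a log2 of 1.75 with SXL (SE 0.34, adjusted p = 5.01e-06) and 2.56 with SSX (SE 0.33, adjusted p = 1.85e-13) in the authors' deposited tables. Without GFP library 2 the log2 ratio of group means with SSX went from 2.55 to 3.28 and with SXL from 1.74 to 2.47, and without GFP library 3 to 2.07 and 1.26. For the pair of proteins, the log2 SXL over SSX of CycB in the authors' deposited table was -0.81 (SE 0.21, adjusted p = 0.000458). Before scaling, CycB had 1534 and 1640 reads with SXL and 1742, 1763 and 1308 with SSX, ranges that overlap, so its lower value with SXL rests on the size factors.

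CycB3 (FBgn0015625; RefSeq Release 6, 3R, 24867934 to 24870816), a B-type cyclin needed late in mitosis and in meiosis, was measured with wide error. Its implied means were 57.3 with SXL, 93.7 with SSX and 30.2 with GFP, the last equal to about 6.31 GFP reads. CycB3 rose by a log2 of 1.63 with SSX (SE 0.59, adjusted p = 0.0152) and had 0.92 with SXL (SE 0.60, adjusted p = 0.253) in the authors' deposited tables. SXL over SSX, on the log2 scale, was -0.71 for CycB3 in the authors' deposited table (adjusted p = 0.0414). Centred on the median of all tested genes, both calls were lost (adjusted p = 0.0835 with SSX and 0.187 for SXL over SSX).

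The kinase polo (FBgn0003124; RefSeq Release 6, 3L, 20309654 to 20313466), which acts in spindle assembly and cytokinesis, had implied means of 585 with SXL, 1024 with SSX and 289 with GFP. polo rose by a log2 of 1.02 with SXL (SE 0.27, adjusted p = 0.00108) and 1.83 with SSX (SE 0.26, adjusted p = 1.35e-11) in the authors' deposited tables. Between the proteins, the log2 SXL over SSX of polo in the authors' deposited table was -0.81 (SE 0.18, adjusted p = 6.55e-05). The values of polo and E2f1 were close to each other in all 3 comparisons, and with SSX they stood above 78.5% and 79.0% of the tested genes in the authors' deposited table.

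**Figure D4:**
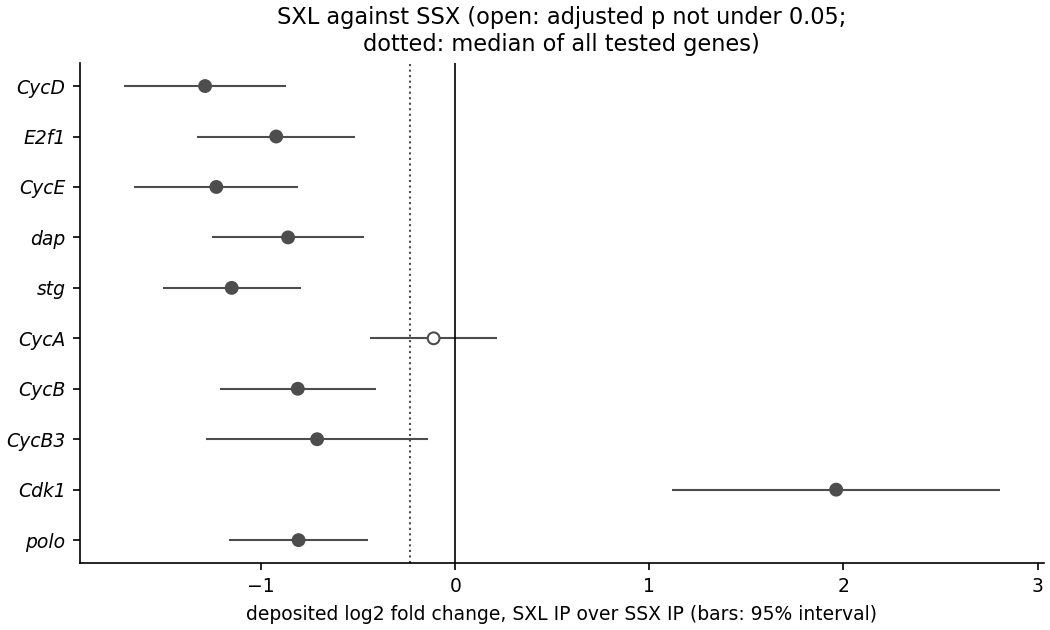
Log2 fold change of the SXL IP over the SSX IP (x axis, no unit) for the 10 genes, with 95% intervals from the deposited standard errors; the open point did not pass an adjusted p of 0.05 and the dotted line is the median of all tested genes, -0.23. Under the deposited size factors 8 genes lie between -1.29 and -0.71, CycA lies at -0.11 and Cdk1 at 1.96. Scaling over the listed genes alone centres them by construction. It puts stg, CycE, CycB and dap between 0.027 and 0.42 and CycD at -0.038, with none past the test.

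The SXL over SSX values of the 8 lower genes spanned a narrow range, and their neighbours in order had intervals that overlap. CycD, CycE and stg were lowest, from -1.29 to -1.15, and E2f1, dap, CycB, polo and CycB3 followed from -0.92 to -0.71 in the authors' deposited table. The interval of CycA (-0.44 to 0.21) does not reach those of CycD, CycE, stg, E2f1, dap or polo, and those of CycB and CycB3 reach it; no test of one gene against another was made. For the 5 genes with counts, every SXL library lay below every SSX library, as was the case for 94.6% of the 956 listed genes. Every SXL library lay above every GFP library for these 5, as for 97.2% of listed genes, and every SSX library did, as for 99.7%. The listed genes were selected for enrichment, so these counts say nothing particular to the cell cycle. With edgeR's TMM scaling over the listed genes alone, which by construction centres genes selected for enrichment, 5.54% to 19.4% of listed genes passed per direction. By that scaling, 0 of the 5 passed in any of the 3 comparisons. With edgeR under the size factors of the deposited fit, 5 of 5 passed in each, as did 87.2% of listed genes (higher with SXL), 99.8% (higher with SSX) and 92.7% (lower with SXL than with SSX).

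A list of 81 other cell cycle genes was read for context, of which 13 had counts at hand; the names of the other 68 could not be tied to the identifiers of the tables, so their values are not given. All 13 came from the authors' list for SSX, so neither their rise with it nor a lower value with SXL than with SSX is independent evidence. With SXL, 12 of the 13 were higher than with GFP in the authors' deposited table (78.7% of the 956 listed genes were), with Orc1, a subunit of the origin recognition complex, at 0.80 (adjusted p = 0.0941). SXL over SSX was lower for 12 of the 13 (90.5% of the listed genes were), with RnrS, the small subunit of ribonucleotide reductase, at -0.49 (adjusted p = 0.0792) in the authors' deposited table. Over the 13, the medians were 1.89 with SXL, 2.90 with SSX and -1.11 for SXL over SSX in the authors' deposited tables, near the 1.55, 2.77 and -1.23 of all listed genes.

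Regulators of entry into mitosis were among them. Wee1, the kinase that opposes stg, had normalized counts of 211 and 204 with SXL, 310, 329 and 302 with SSX, and 45.1 and 41.5 with GFP. The groups of Wee1 did not overlap, and the authors' deposited tables gave log2 rises of 2.14 (SXL, adjusted p = 6.98e-05) and 2.73 (SSX, adjusted p = 4.9e-08). The second Cdc25 phosphatase, twe, which is known for its role in meiosis, rose by 1.48 (adjusted p = 0.0167) and 2.81 (adjusted p = 1.09e-07). The small Cdk-binding protein Cks30A rose by 1.95 (adjusted p = 0.00286) and 3.02 (adjusted p = 3.03e-07), with 6 GFP reads in all. The kinase gwl, which restrains the phosphatase PP2A in mitosis, rose by 1.25 (adjusted p = 0.031) and 2.17 (adjusted p = 1.44e-05). A PP2A subunit, tws, rose by 2.17 (adjusted p = 3.61e-10) and 3.28 (adjusted p = 2.59e-24). All values for twe, Cks30A, gwl and tws are from the authors' deposited tables, with SXL given before SSX.

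Genes for growth, replication and protein destruction were among the 13 too. Myc, listed under its older name dm, is the transcription factor that drives cell growth. Its normalized counts were 3144 and 4250 with SXL, 9059, 14464 and 17445 with SSX, and 655 and 598 with GFP, with no overlap between groups. The authors' deposited tables gave dm a log2 rise of 2.51 (SXL, adjusted p = 1.75e-12) and 4.38 (SSX, adjusted p = 9.39e-44). SXL was below SSX for dm, at -1.87 on the log2 scale with an adjusted p of 1.19e-09 by the authors' deposited table. CycG, a cyclin with roles in growth and DNA repair, had 1.45 (SXL over GFP), 3.15 (SSX over GFP) and -1.70 (SXL over SSX) on the log2 scale, the last with an adjusted p of 1.99e-21, in the authors' deposited tables.

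Of the replication genes, the authors' deposited table for SSX gave log2 rises of 2.23 (Orc1) and 2.14 (RnrS). Orc6 had 1 GFP read. Over the pooled GFP reads, SSX stood at 20.2 times GFP, with a 95% counting interval from 3.63 to 798. The authors' deposited tables gave Orc6 a smaller rise, 10.1-fold with SSX (adjusted p = 0.000546) and 5.28-fold with SXL (adjusted p = 0.0253). The activator of mitotic cyclin destruction fzr, listed as rap, had 3 GFP reads. Over the pooled GFP reads it stood at 24.6 times GFP with SSX (95% interval by counting 8.40 to 119) and 9.75 times with SXL (3.34 to 47.3). Its rises in the authors' deposited tables were 17.3-fold with SSX and 6.94-fold with SXL. The ubiquitin ligase subunit SkpA rose by 1.39 with SXL and 2.50 with SSX, and the securin pim by 1.89 and 2.90 in the authors' deposited tables. pim rests on 4 GFP reads and SkpA on 57.

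**Figure D5:**
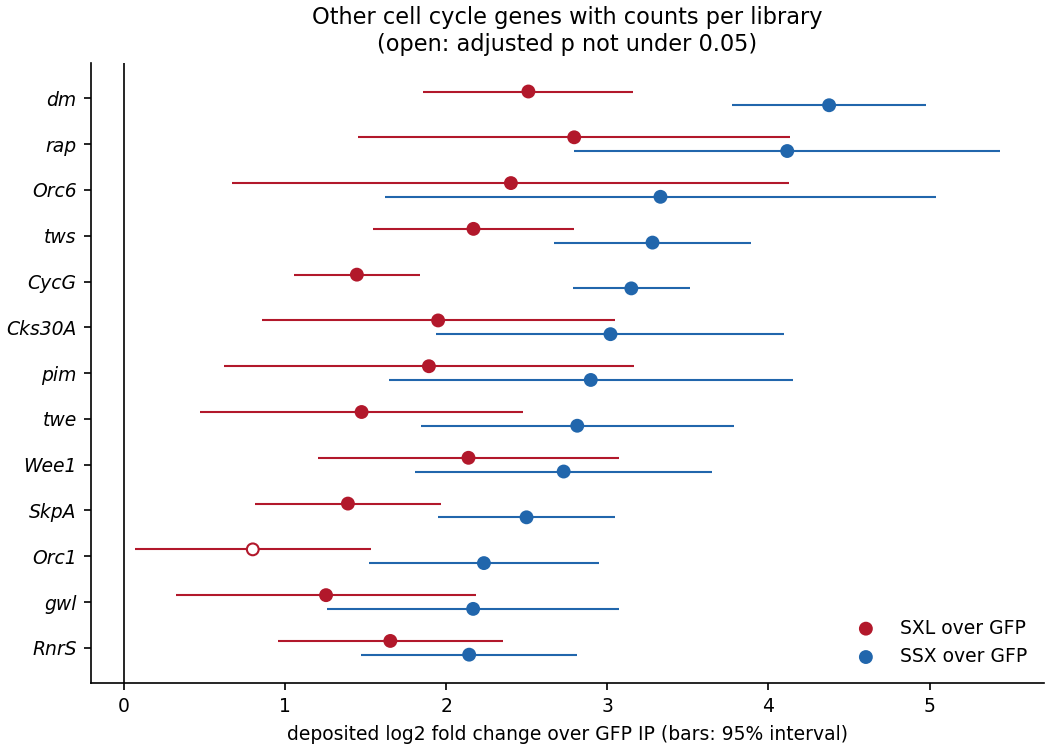
Log2 fold change over the GFP IP (x axis, no unit) of 13 other cell cycle genes for the SXL IP (red) and the SSX IP (blue), ordered by the SSX value, with 95% intervals from the deposited standard errors; the open point, Orc1 with SXL, did not pass an adjusted p of 0.05. Each SSX point lies to the right of its SXL point under the size factors of the deposited fit, and the widest intervals belong to Orc6 and rap, with 1 and 3 GFP reads, whose fitted values are no bounds.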

How the data were processed

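The submitters' processing notes name DESeq2, DESeq, featureCounts, TopHat2, Trimmomatic and the build BDGP6; roles and versions were not given in the sources used here. Per the labels' protocols, RNA was depleted of ribosomal RNA and made into stranded paired-end libraries. The authors deposited 3 full tables with a mean normalized signal, a log2 fold change with its standard error, a Wald score and p-values (raw and adjusted) per gene, and 2 lists of enriched genes that add raw counts per library. Size factors were solved from these counts and the deposited mean of each listed gene, which they reproduced exactly, and normalized counts are counts over size factors. Calls are those of the deposited tables (adjusted p under 0.05, Benjamini-Hochberg over all tested genes). edgeR 4.0.16 (quasi-likelihood) and DESeq2 1.42.0 in R 4.3.3, with these size factors, were run on the 956 listed genes, which were selected on the outcome. Only the edgeR fit was checked on simulated counts, and only for SXL against SSX. Python 3.11.15 with scipy 1.17.1 did the rest.

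The members and gene lists were chosen with earlier results of these data known; all 10 members and every other cell cycle gene with counts at hand are named. Names of members without counts follow the identifiers given for this work. RefSeq coordinates (Release 6) are given for members without counts; 787 of 799 listed genes had the same start and end in both sources. The labels name no separate cultures behind the replicates: a p-value sets a difference against the spread of these libraries, which may be technical. Intervals of reads cover counting error only. Alternatives covered thresholds, filters, adjustment, centring, tests, scaling, single libraries and a block on column number.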

Additional observations from a re-analysis of the deposited data

How the results depend on the processing

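Of the 10 genes, between 7 and 8 were called with SXL, 9 and 10 with SSX, and 8 and 9 between the proteins under an adjusted p of 0.01 or 0.1, minimum mean counts of 10 or 50, adjustment of every deposited p together and centring on the median. These counts take both directions together. Over all genes, these settings called 8.55% to 29.7% higher with SXL. With SSX they called 18.1% to 47.0% higher and 13.1% to 26.6% lower. Between the proteins, 19.2% to 41.7% were lower with SXL than with SSX and 6.56% to 17.8% higher. Holm adjustment called 5 with SXL (8 before; 2.85% of all genes were called higher), 8 with SSX (8.89% higher and 5.08% lower) and 3 between the proteins (9 before; 8.6% lower). A log2 size of at least 1 called 7 with SXL (14.1% higher), 10 with SSX (24.5% higher and 18.0% lower) and 4 between the proteins (17.5% lower and 7.04% higher). Both call fewer genes by construction.

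For the 5 genes with counts, DESeq2 called 5 in each comparison, as it did 84.8% (SXL), 99.7% (SSX) and 91.9% (lower with SXL than with SSX) of the listed genes. Leaving out 1 library at a time gave 4 to 5 calls with SXL (73.0% to 88.5% of listed genes), where CycD was lost without GFP library 3, 5 to 5 with SSX (99.3% to 99.8%) and 5 to 5 between the proteins (78.8% to 94.8%). A replicate block on the column numbers 2 and 3 gave 5 calls of 5 in each comparison (88.3%, 99.7% and 95.2% of listed genes); the numbers are not shown to pair the libraries (correlation of column differences across 510 genes 0.14 for SXL with SSX, -0.043 for SXL with GFP and 0.090 for SSX with GFP).

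TMM over the listed genes centres genes selected for enrichment, so it removes what they share by construction. It gave 0 calls in each comparison by edgeR, where 8.68% of listed genes were higher and 5.54% lower with SXL, 10.3% and 5.54% with SSX, and 19.4% and 19.0% between the proteins. The log2 SXL over SSX became 0.10 for stg, 0.027 for CycE, 0.42 for CycB, 0.39 for dap and -0.038 for CycD. Values over GFP became -0.24 for CycB with SSX, and -0.31 and -0.27 for CycD with SXL and SSX. The GFP depth, 11 to 337 reads for these 5 genes, limits the fold changes over GFP.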

Other observations

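Beyond the gene lists above, 25 further listed genes carry 1 of 6 gene ontology terms for the cell cycle in the deposited annotation column, a set read after the data had been seen. All 25 are listed as enriched by the authors, so their rise is not independent evidence. Higher with SXL than with GFP were 23 of the 25, and lower with SXL than with SSX were 21, in the authors' deposited tables, where 78.7% and 90.5% of the 956 listed genes were. The 4 with the highest mean normalized counts were brat, Ran, dlg1 and csw. brat, a translational repressor that limits growth of neural stem cells, had means of 3104 with SXL, 7699 with SSX and 334 with GFP, and log2 fold changes of 3.17 and 4.47 over GFP in the authors' deposited tables. Ran, the small GTPase of nuclear transport and spindle assembly, rose by a log2 of 2.67 with SSX in the authors' deposited tables, where its value with SXL was 0.69 at an adjusted p of 0.0774. dlg1, a cell polarity scaffold, rose by 1.41 with SXL and 2.93 with SSX, and csw, a phosphatase of receptor tyrosine kinase signalling, by 2.53 and 3.86 in the authors' deposited tables.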
